A study of Mus musculus with 4 samples.

Results

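The genes described here are the bone morphogenetic protein (BMP) ligands Bmp2, Bmp4, Bmp5, Bmp6, Bmp7 and Gdf6 and the secreted BMP antagonists Nog, Chrd and Grem1. They were taken by gene symbol from the deposited expression table, where each of the 9 symbols had 1 row among 55426. The table holds poly(A) RNA sequencing values of day 6 retinal organoids from mouse cells, which are aggregates of stem cells guided in culture towards retina. All 4 libraries share 1 line, labelled Rx:GFP Mettl3 KO line, with the genotype Mettl3 KO and Dox-inducible HA-METTL3, and all were grown with 0.1 µM of an agent labelled AGN. METTL3 is the catalytic subunit of the enzyme that writes N6-methyladenosine (m6A) on RNA. The comparison is between 2 untreated libraries and 2 libraries from organoids given 2 µg/ml doxycycline (Dox) for 6 days, so the untreated group carries the knockout and the inducible gene as well. The sample titles also carry a code, EV, that the labels do not explain, and nothing in the labels says whether the libraries came from separate cultures, so p-values measure only the spread between these libraries.

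BMPs are secreted signals that bind paired type I and type II receptor kinases, which phosphorylate SMAD1, SMAD5 and SMAD9. Noggin, chordin and gremlin are secreted proteins that bind BMPs and keep them from their receptors. In the developing eye BMP4 acts in the dorsal optic vesicle and BMP7 in early eye formation, while BMP6 and GDF7 are among the signals made by the dorsal midline of the neural tube.

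Depth was alike in all libraries, with 31700000 to 34900000 fragments fitted from the low values and 13813 to 13909 genes at 1 FPKM (fragment counts normalised to transcript length and depth) or more. Mettl3 itself stood at 40.33 and 37.98 FPKM without Dox and at 45.20 and 46.37 FPKM with it, a change that did not pass the test (log2 fold change 0.22, adjusted p = 0.122 in limma). The value does not separate the knocked-out locus from the inducible copy, and exons of Tox4 overlap it on the opposite strand. Rax, the eye-field gene for which the reporter is named, was at 1.12 and 0.82 FPKM without Dox and at 201.14 and 227.98 FPKM with it. Of the 7 retinal progenitor markers 6 were higher with Dox, while Pax6 stood at 127.76 and 118.86 FPKM without Dox and at 122.80 and 130.69 FPKM with it and did not pass, and their summed level was 151.2 to 163.5 FPKM without Dox and 832.3 to 970.0 FPKM with it.

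The set of BMP genes in use differed with Dox. Bmp4 and Grem1 rose, Bmp2, Bmp5, Bmp6, Bmp7 and Nog fell, and Chrd did not pass the test. Gdf6 was not tested, since its mean over the 4 libraries, 0.97 FPKM, lay under the required 1 FPKM. Of the 9 genes 8 were thus tested, 2 called higher and 5 called lower at an adjusted p below 0.05 in limma. Among all 13931 tested genes 9.31% were called, 4.44% higher and 4.87% lower. Untreated and Dox libraries were fully apart for 8 of the 9 genes, 3 with Dox above and 5 with Dox below. Among tested genes the same held for 53.4%, with Dox above for 26.5% and below for 26.9%. Bmp2, Bmp5, Bmp6 and Grem1 reached the filter only through the group in which they were higher, so their being called is partly built into the choice of tested genes. The same holds for Gdf7, Sostdc1, Bmpr1b and Smad9, named below from lists of the pathway. Log2 fold changes were computed from log2(FPKM + 1), where low genes appear to change less than they do, while plain folds are ratios of mean FPKM.

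**Figure D1:**
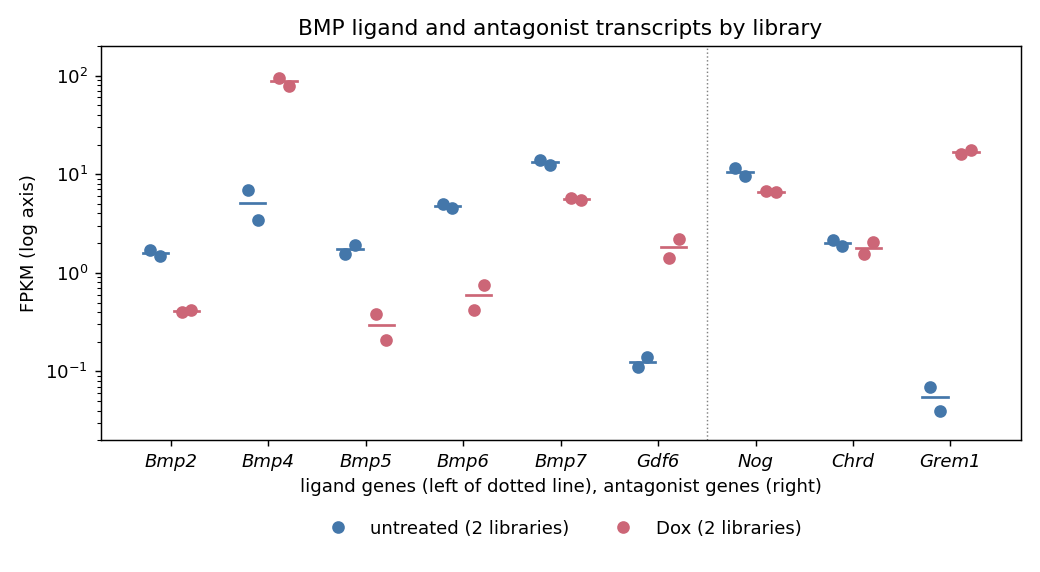
FPKM on a log axis of the 6 ligand genes and, right of the dotted line, the 3 antagonist genes, with 1 point per library and a bar at the mean of each group of 2. Bmp4, Gdf6 and Grem1 lie higher in both Dox libraries, Bmp2, Bmp5, Bmp6, Bmp7 and Nog lower, and the Chrd points overlap.

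For 5 of the 9 genes the RefSeq table for GRCm38.p6 held an entry around the transcription start, and the 250 bases before the start (positions in GRCm38, like those of the genes below) are shown for the risers Bmp4 and Grem1. Capitals mark matches, on either strand, to 5 short motifs that were searched: the TATA box core TATAAA, the homeodomain core TAATTA, the T-box core TCACAC, the SMAD1/5 palindrome GGCGCC and the E-box CACGTG. The windows lie at chr14:46390670-46390919 on the minus strand for Bmp4 and chr2:113758649-113758898 on the minus strand for Grem1.
Bmp4: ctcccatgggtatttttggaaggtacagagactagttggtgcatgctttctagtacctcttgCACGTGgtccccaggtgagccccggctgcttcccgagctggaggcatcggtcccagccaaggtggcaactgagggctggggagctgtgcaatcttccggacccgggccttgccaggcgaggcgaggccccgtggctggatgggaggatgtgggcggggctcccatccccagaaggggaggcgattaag
Grem1: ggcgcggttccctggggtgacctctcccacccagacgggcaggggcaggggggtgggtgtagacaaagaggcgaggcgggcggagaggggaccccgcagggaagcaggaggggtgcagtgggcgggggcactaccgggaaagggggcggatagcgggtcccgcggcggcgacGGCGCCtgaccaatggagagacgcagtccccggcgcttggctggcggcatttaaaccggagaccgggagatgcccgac
The annotations differ for Bmp6, whose RefSeq start lies 609 bases downstream of its GENCODE start, so that its window falls in the first exon of the GENCODE gene and is not shown. CACGTG stood in the windows of Bmp4 and Bmp6 and in 6.02% of 32851 such windows of the table. GGCGCC stood in those of Grem1 and Chrd and in 9.59% of all windows. The other 3 motifs, found in 12.4% (TATAAA), 4.84% (TAATTA) and 12.3% (TCACAC) of all windows, had no match in the 5. The windows of Grem1, Bmp6 and Bmp4 held 24, 22 and 11 CG dinucleotides, that of Chrd 28 and that of Bmp5 4, against a median of 6.

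Bmp4 (ENSMUSG00000021835, chr14:46383520-46390669), the ligand of the dorsal optic vesicle, was the most abundant of the 9 transcripts with Dox. It stood at 6.87 and 3.42 FPKM without Dox and at 95.05 and 79.29 FPKM with it. Both Dox libraries stood far above both untreated ones, which differed from each other by 2.01-fold. The mean rose 16.9-fold, from 5.15 ± 2.44 to 87.2 ± 11.1 FPKM (SD, n = 2 each), with a change of 3.90 in log2 (SE 0.272, adjusted p = 9.36e-04 in limma). Over the single libraries the ratio ranged from 11.5 to 27.8. By the size of its log2 fold change Bmp4 ranked 20 among the 13931 tested genes. Its exons share 89 bases with Gm15217 on the opposite strand, whose only value above 0 was 0.26 FPKM, in Dox replicate 1.

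Bmp7 (ENSMUSG00000008999, chr2:172868012-172940321), the other ligand best known from eye formation, moved the opposite way. It was listed at 14.02 and 12.51 FPKM without Dox and at 5.70 and 5.51 FPKM with it. The Dox libraries lay within 0.2 FPKM of each other and below both untreated ones. The mean fell 2.37-fold, with a change of -1.11 in log2 (SE 0.0977, adjusted p = 0.00213 in limma).

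Bmp6 (ENSMUSG00000039004, chr13:38345107-38500302), the ligand known from the roof plate, had the lowest fold change of the 9 genes. It stood at 5.02 and 4.51 FPKM without Dox and at 0.42 and 0.76 FPKM with it. The groups were well apart, and the mean of 4.77 ± 0.361 FPKM fell to 0.590 ± 0.240 FPKM (SD, n = 2 each), 8.08-fold. The change in log2 was -1.87 (SE 0.155, adjusted p = 0.00171 in limma). Txndc5, which shares 224 exon bases with Bmp6 on the opposite strand, was listed at 92.80 to 100.73 FPKM in the 4 libraries and could add reads to Bmp6 if counting ignored strand.

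Bmp5 and Bmp2 were low genes in both groups and lower still with Dox. Bmp5 (ENSMUSG00000032179, chr9:75775364-75900310), the close relative of Bmp6 and Bmp7, was listed at 1.55 and 1.90 FPKM without Dox and at 0.38 and 0.21 FPKM with it, a 5.85-fold lower mean (log2 fold change -1.07, SE 0.155, adjusted p = 0.0126 in limma). Bmp2 (ENSMUSG00000027358, chr2:133552159-133562885), the close relative of Bmp4, was listed at 1.72 and 1.47 FPKM without Dox and at 0.40 and 0.42 FPKM with it, a 3.89-fold lower mean (log2 fold change -0.88, SE 0.139, adjusted p = 0.0172 in limma). The close relatives Bmp2 and Bmp4 thus moved in opposite directions. At the fitted depth the Bmp2 values correspond to about 185 and 170.1 fragments without Dox and 42.0 and 45.5 with it. Bmp5 shares 1878 exon bases with Gm26903 on the opposite strand, which was listed at 0 in all libraries. The call of Bmp2 was lost without untreated replicate 1, Dox replicate 1 or Dox replicate 2 (adjusted p = 0.0633, 0.0803 and 0.0835 in limma). That of Bmp5 was lost without untreated replicate 2, Dox replicate 1 or Dox replicate 2 (0.0546, 0.0515 and 0.0775) and without the filter on low values (0.0553).

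Gdf6 (ENSMUSG00000051279, chr4:9844372-9862345), a BMP family ligand needed for eye growth and for the dorsal retina, was listed at 0.11 and 0.14 FPKM without Dox and at 1.43 and 2.20 FPKM with it. That corresponds to about 11.7 and 16.1 fragments without Dox and 149.2 and 236.8 with it, so the untreated libraries stood above a floor of 3 fragments. The ratio of means was 14.5, and both Dox libraries lay above both untreated ones. Gdf6 was just outside the filter with its mean of 0.97 FPKM, while Bmp2 and Bmp5 were just inside at 1.00 and 1.01 FPKM. When genes with at least 1 FPKM in 2 libraries were tested, a rule added after this gene was seen to miss the filter, its log2 fold change was 1.31 (SE 0.172, adjusted p = 0.00820 in limma). Without any filter the adjusted p was 0.0628.

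Among the antagonists, Grem1 had the highest log2 fold change of the 8 tested genes and Nog the lowest of the 3. Grem1 (ENSMUSG00000074934, chr2:113746164-113758646), which encodes the BMP2 and BMP4 antagonist gremlin, was listed at 0.07 and 0.04 FPKM without Dox and at 16.10 and 17.75 FPKM with it. The untreated values correspond to about 8.86 and 5.46 fragments, the Dox values to about 1994 and 2268. The ratio of means was 308, and over the single libraries, with the untreated values rounded to 2 decimals, it ranged from 230.0 to 443.8. The change in log2 was 4.09 (SE 0.114, adjusted p = 6.96e-05 in limma), which ranked 17 among all tested genes.

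Nog (ENSMUSG00000048616, chr11:89300638-89302332), which encodes noggin, was listed at 11.45 and 9.57 FPKM without Dox and at 6.70 and 6.59 FPKM with it. The mean fell 1.58-fold, from 10.5 ± 1.33 to 6.65 ± 0.0778 FPKM (SD, n = 2 each), with a change of -0.59 in log2 (SE 0.112, adjusted p = 0.0330 in limma). Both Dox libraries lay below both untreated ones, but the call did not hold with any single library left out: the adjusted p was 0.181 and 0.0631 without untreated replicates 1 and 2, and 0.143 and 0.167 without Dox replicates 1 and 2. It was also lost without the filter (0.120) and after rescaling to a common sum per library (0.0718).

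Chrd (ENSMUSG00000006958, chr16:20733127-20742384), which encodes chordin, was listed at 2.15 and 1.88 FPKM without Dox and at 1.55 and 2.06 FPKM with it. The groups overlapped, and the difference was within the replicate spread (log2 fold change -0.11, 95% interval -0.48 to 0.26, adjusted p = 0.714 in limma). The sign turned without Dox replicate 1 (0.023). The interval leaves room for a modest change in either direction. Exons of Thpo overlap Chrd on the opposite strand, and Thpo was listed at 0.67 to 0.83 FPKM.

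**Figure D2:**
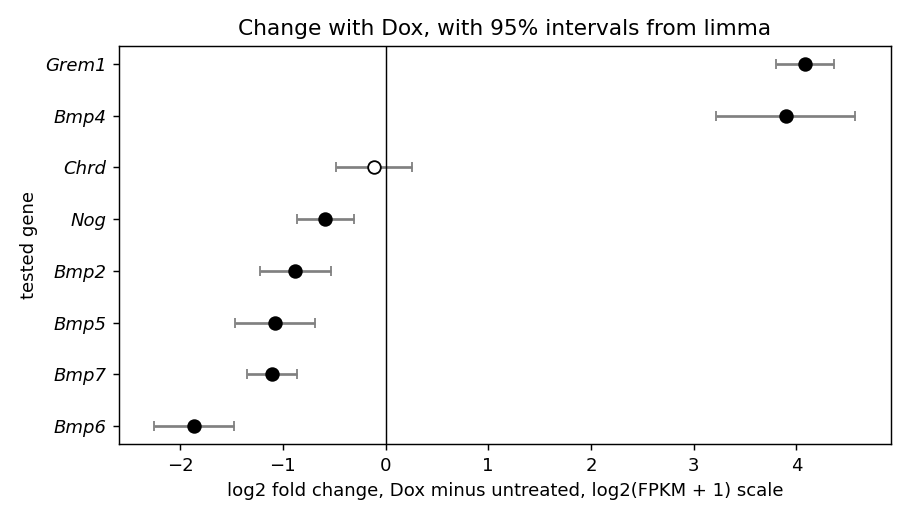
Log2 fold change of the 8 tested genes, Dox minus untreated, on the log2(FPKM + 1) scale, with 95% intervals from limma. Filled points passed an adjusted p below 0.05, and the open point, Chrd at -0.11, did not.

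The order of the transcripts by level per length differed between the groups. Without Dox it was Bmp7, Nog, Bmp4, Bmp6, Chrd, Bmp5, Bmp2, Gdf6 and Grem1, from 13.3 FPKM down to 0.0550 FPKM. Of the neighbours in that order, the libraries overlapped between Bmp4 and Bmp6, between Chrd and Bmp5 and between Bmp5 and Bmp2. With Dox the order was Bmp4, Grem1, Nog, Bmp7, Gdf6, Chrd, Bmp6, Bmp2 and Bmp5, from 87.2 FPKM down to 0.295 FPKM. There the libraries overlapped between Gdf6 and Chrd, and those of Bmp6 and Bmp2 met at 0.42 FPKM. Bmp4 moved from the third place to the first, and Grem1 from the last to the second.

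Summed over the 6 ligand genes, the level was 29.3 and 23.9 FPKM without Dox and 103.4 and 88.4 FPKM with it. Bmp4 made up 23.5% and 14.3% of that sum without Dox and 91.9% and 89.7% with it. Bmp7 held the first place without Dox, at 47.9% and 52.2%, and fell to 5.51% and 6.23% of the sum. The sum of the 3 antagonists was 13.7 and 11.5 FPKM without Dox and 24.4 and 26.4 FPKM with it. Nog gave 83.8% and 83.3% of the antagonist sum without Dox, and Grem1 gave 66.1% and 67.2% with it. Sums of transcript levels say nothing of protein, and in bulk organoids fewer cells of a type and less RNA per cell cannot be told apart.

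**Figure D3:**
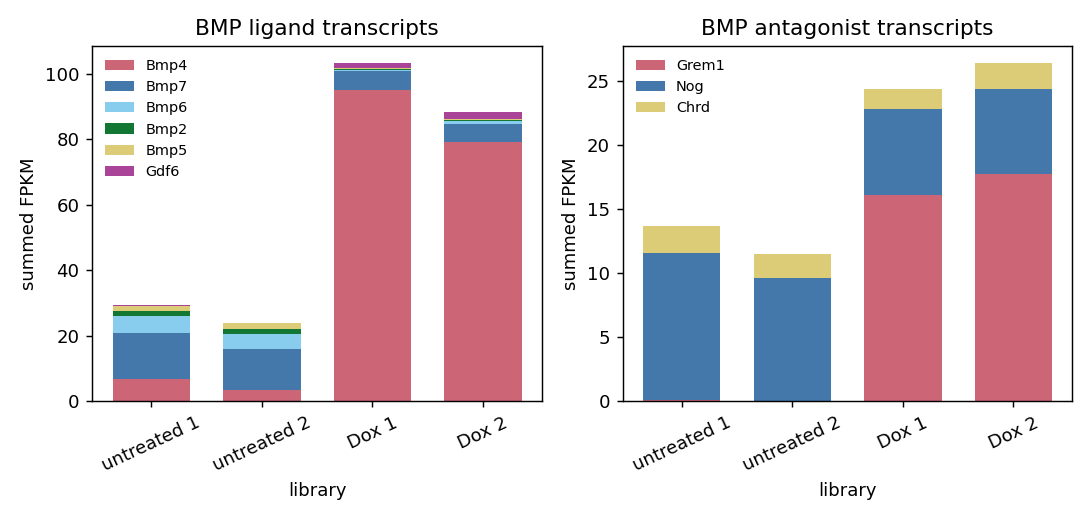
Stacked bars of FPKM in each library, for the 6 ligand genes on the left and the 3 antagonist genes on the right, each axis starting at 0. Bmp4 fills about 90% of the ligand bar in both Dox libraries (91.9% and 89.7%), and the antagonist bar passes from mostly Nog to mostly Grem1.

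Genes that resembled the extremes of the set were found by Euclidean distance in log2(FPKM + 1) over the 4 libraries, which describes level and group difference together. Nearest to Grem1 were Kdr (0.22, 0.25, 13.91 and 17.63 FPKM in untreated 1 and 2 and Dox 1 and 2), Col9a1 and Pax2, at distances of 0.381, 0.679 and 0.861. Nearest to Bmp6 were Lmx1a (5.36, 5.36, 0.49 and 0.68 FPKM), Cfap77 and Gdf7, at distances of 0.242, 0.294 and 0.338. Lmx1a encodes a transcription factor of the roof plate. These genes were picked by the same values, so their shared group difference is built in. Like Grem1 and Bmp6, they reached the filter only through the group in which they were higher.

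Of the other ligands Gdf7 was the called one. Of 15 further BMP and GDF ligand genes in the table, 11 stayed under 1 FPKM in every library, 4 of them at or under 0.05 FPKM, and 2 were tested. Gdf7, a roof plate ligand, was listed at 4.42 and 5.12 FPKM without Dox and at 0.19 and 0.69 FPKM with it, a change of -2.02 in log2 (SE 0.200, adjusted p = 0.00321 in limma). Its call was lost without the filter on low values (0.0516).

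Of 21 further secreted antagonists and modulators 9 were tested, 3 rose and 1 fell (median log2 fold change 0.25, against -0.0042 over all tested genes). Chrdl1, a chordin-like antagonist, rose from 1.12 and 1.13 to 5.95 and 7.35 FPKM (adjusted p = 0.00107 in limma). Fst, which encodes the activin and BMP binding protein follistatin, rose from 3.48 and 2.91 to 6.50 and 6.36 FPKM (adjusted p = 0.0112 in limma). Sostdc1, an antagonist that also acts on Wnt signalling, fell from 1.91 and 2.05 to 0.65 and 0.63 FPKM (adjusted p = 0.0143 in limma). Fstl1 rose 1.28-fold, and its call was lost in 8 of 15 other fits. It was lost with any 1 library left out (log2 fold change 0.32 to 0.37) and with the replicate number as a block (adjusted p = 0.100 in limma). The Fstl1 call was also lost without a filter (0.0602), after rescaling to a common sum per library (0.0739) and without the variance trend (0.0659). The call of Fst was lost without untreated replicate 2 or Dox replicate 1 or 2 (0.0683, 0.0862 and 0.0874) and that of Sostdc1 without the same libraries (0.0641, 0.0687 and 0.0766). That of Fst was also lost without a filter (0.0739).

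Changes on the receiving side went both ways. Of the 7 receptor genes 6 were tested, 1 rose and 1 fell, with a median log2 fold change of 0.11. Bmpr1b, a type I receptor, rose from 0.67 and 0.77 to 1.76 and 2.01 FPKM (adjusted p = 0.0275 in limma), a call lost with any 1 library left out (0.0832 to 0.126) and without the filter (0.0775). Acvr2a, a type II receptor shared with activins, fell from 31.22 and 29.98 to 14.67 and 14.00 FPKM (adjusted p = 9.82e-04 in limma). Bmpr1a, the most abundant type I receptor and named after its values were seen, was at 38.7 ± 1.15 and 41.8 ± 0.198 FPKM (SD, n = 2 each) and did not pass (adjusted p = 0.392 in limma). Acvr2a exons overlap Orc4 and Bmpr1a exons overlap Gm17110, both on the opposite strand.

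Among the 7 coreceptor and pseudoreceptor genes 5 were tested, 1 rose and 2 fell (median log2 fold change 0.20). Rgma, which encodes a membrane coreceptor of BMPs, fell from 46.86 and 39.67 to 21.47 and 21.25 FPKM (adjusted p = 0.00307 in limma). Its relative Rgmb fell from 8.29 and 7.52 to 3.80 and 4.73 FPKM (adjusted p = 0.0208 in limma), a call lost with any 1 library left out (0.0546 to 0.130) and without the filter (0.108). Bambi, a pseudoreceptor that dampens the signal and is itself a BMP target, rose from 3.43 and 4.09 to 7.60 and 7.48 FPKM (adjusted p = 0.00962 in limma). The call of Bambi was lost without untreated replicate 1, Dox replicate 1 or Dox replicate 2 (0.0641, 0.0801 and 0.0833) and without the filter (0.0663).

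Of the 6 proteases that process the ligands or chordin 4 were tested and 1 fell, Pcsk6, a proprotein convertase (3.86 and 3.37 to 1.55 and 1.98 FPKM, adjusted p = 0.0308 in limma). Its call was lost with any 1 library left out (0.0810 to 0.143) and without the filter (0.130).

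All 10 SMAD and cofactor genes were tested, 2 rose and 0 fell in limma (1 was lower at an unadjusted p below 0.05), with a median log2 fold change of 0.025. Smad9, the low-abundance receptor-activated SMAD, rose from 0.11 FPKM in both untreated libraries to 3.54 and 4.61 FPKM (log2 fold change 2.18, adjusted p = 9.93e-04 in limma). Skil, a SMAD corepressor, rose from 3.87 and 3.64 to 7.61 and 8.55 FPKM (adjusted p = 0.00553 in limma), a call lost without Dox replicate 2 (0.0557). Smad1 and Smad5, named after their values were seen as the more abundant receptor-activated SMADs, stood at 21.1 and 17.2 FPKM without Dox and at 22.0 and 16.8 FPKM with it, and neither passed (adjusted p = 0.799 and 0.854 in limma).

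BMP target and feedback genes were mostly higher with Dox. Of 14 genes in the list 9 were tested, 6 rose and 2 fell, with a median log2 fold change of 1.11. Id1, a direct SMAD target, rose from 39.09 and 36.41 to 215.00 and 237.46 FPKM (log2 fold change 2.55, adjusted p = 8.27e-05 in limma). Id2 and Msx2 rose by 2.14 and 2.20 on the log2 scale. Id4, also an Id family gene, ran the other way, from 21.14 and 23.89 to 4.25 and 3.44 FPKM (log2 fold change -2.28, adjusted p = 3.93e-04 in limma). Hey1 fell as well, from 15.33 and 14.98 to 7.04 and 6.98 FPKM (log2 fold change -1.01, adjusted p = 0.00162 in limma). Msx1, named after its value was seen, had a log2 fold change of -0.47 and missed the threshold (adjusted p = 0.0519 in limma), which it passed in 5 of 15 other fits.

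Genes that pattern the eye cup along its dorsal to ventral axis, on which BMP4 acts, were also counted. Of 11 in the list 9 were tested, 6 rose and 2 fell, with a median log2 fold change of 1.44. Of the 6 risers 5 (Tbx2, Tbx3, Tbx5, Vax2 and Aldh1a1) reached the filter only through the Dox libraries, so the count and the median are partly built into the choice of tested genes. The dorsal factor Tbx5 was listed at 0 in both untreated libraries and at 7.33 and 9.80 FPKM with Dox. The dorsal factors Tbx2 and Tbx3 rose by 5.89 and 4.88 on the log2 scale, but Vax2, a ventral factor, rose by 2.91 as well, from 0.12 and 0.29 to 7.99 and 8.14 FPKM. The 2 that fell were Efnb1 and Ephb3. Efnb1 went from 48.25 and 46.33 to 20.59 and 25.13 FPKM (adjusted p = 0.00379 in limma). Ephb3 went from 6.11 and 5.12 to 2.07 and 2.17 FPKM (adjusted p = 0.00554 in limma).

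**Figure D4:**
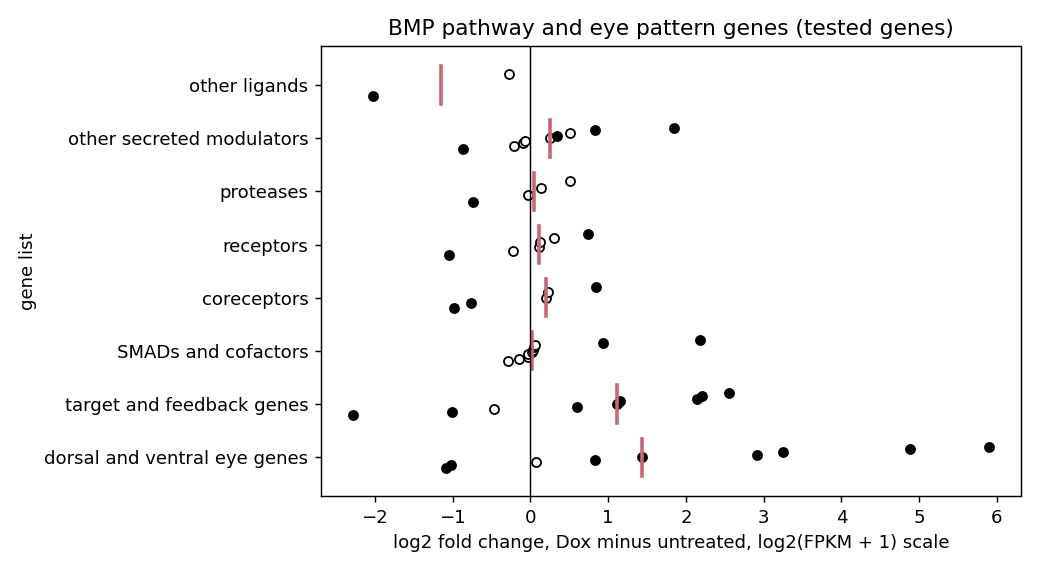
Log2 fold change on the log2(FPKM + 1) scale of the tested genes in 8 lists, 1 point per gene, filled where the adjusted p in limma was below 0.05, with the list median as a red bar. Target and eye pattern genes reach furthest to the right, with medians of 1.11 and 1.44 (the latter partly built in, as 5 of its 6 risers reached the filter only through Dox), while receptors and SMADs centre near 0.

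Markers of cell types that can make or answer BMPs differed with Dox in some lists and not in others. Of 10 markers of the forebrain dorsal midline and roof plate, Gdf7 among them, 7 were tested, 6 fell and 0 rose, and their summed level was 278.4 to 279.9 FPKM without Dox and 21.0 to 22.8 FPKM with it. Most of that sum lay in Wnt8b, Rspo2, Zic1 and Rspo3 (means of 86.2, 69.0, 68.9 and 36.3 FPKM without Dox). Msx1 did not pass, and Ttr, which was not tested, did not exceed 0.30 FPKM. Of 6 neural crest markers all were tested and 3 fell, Sox10, Tfap2b and Foxd3, which carried the difference between summed levels of 30.8 to 31.6 FPKM without Dox and 8.08 to 10.1 FPKM with it. The other 3, Twist1, Snai1 and Snai2, were higher in both Dox libraries (means of 2.46, 0.93 and 1.52 FPKM without Dox and 3.71, 1.31 and 2.45 FPKM with it) and did not pass (adjusted p = 0.0914, 0.306 and 0.0966 in limma). Of 6 mesenchymal markers 5 were tested and 2 rose, Col1a2 from 2.46 and 1.93 to 12.21 and 12.02 FPKM and Pdgfra from 1.00 and 1.20 to 2.82 and 2.74 FPKM. Their summed level was 10.5 to 12.4 FPKM without Dox and 19.8 to 22.4 FPKM with it, a difference that lay mainly in Col1a2, and the median log2 fold change was -0.13. Prrx1 was lower in both Dox libraries (means of 3.36 FPKM without Dox and 2.01 FPKM with it) and did not pass (adjusted p = 0.111 in limma). Of 6 neuronal markers 5 were tested and 5 fell, with summed levels of 146.6 to 149.1 FPKM and 82.1 to 85.9 FPKM. Of 7 surface ectoderm markers 5 were tested and 0 passed in limma (1 at an unadjusted p below 0.05), with overlapping summed levels of 53.2 to 58.4 FPKM and 55.3 to 62.5 FPKM, and Krt5 and Trp63 did not exceed 0.02 FPKM. All 5 pluripotent markers were tested, and 1 fell, Klf4, from 2.08 and 1.92 to 0.73 and 0.95 FPKM (adjusted p = 0.0348 in limma). Nanog was lower in both Dox libraries and did not pass (adjusted p = 0.180 in limma). Their summed levels overlapped, at 23.0 to 24.7 FPKM without Dox and 17.9 to 25.4 FPKM with it. Of the called markers, 3 of neural crest, 2 of the roof plate, 2 of neurons, 4 of retinal progenitors and the pluripotent Klf4 reached the filter only through the group in which they were higher. The lists were chosen with earlier results of these data known, so the counts describe the listed genes only. The part of these cell types in the BMP gene changes was not tested.

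Because the study concerns m6A, the transcripts were also searched on the sense strand for GGACT, a frequent core of methylated sites. The longest annotated transcript of Bmp4 held 5 in 2064 bases, 2.42 per kilobase, more than 93.9% of the 13918 tested genes with a sequence. That of Grem1, which rose as well, held 1 in 4148 bases, 0.241 per kilobase, and the median of all was 0.998. The other 7 genes ranged from 0.545 for Bmp7 to 1.36 for Chrd, between the values of Grem1 and Bmp4. Any link of m6A to the changes of these genes was not tested. These letters are not measured methylation.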

How the data were processed

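RNA of 2 untreated and 2 Dox-treated organoid samples was sequenced after poly(A) selection, and groups were taken from the treatment label. The authors deposited FPKM values per gene and library, rounded to 2 decimals. STAR, Cuffdiff and mm10 are named, without versions, per the submitters' processing notes. The annotation and any use of strand are not given in the sources used here.

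Values were transformed to log2(FPKM + 1), and 13931 genes averaging 1 FPKM or more over the 4 libraries entered a limma fit without covariates (version 3.58.1, R 4.3.3, trended eBayes). Two-sided p-values were adjusted by Benjamini-Hochberg over all of these genes, with a threshold of 0.05. An exact permutation of 2 against 2 libraries cannot go below p = 0.333, so p-values rest on variance shared across genes. On simulated data, drawn from normal distributions, 200 of 13931 genes were changed by 1 or 2 on the log2(FPKM + 1) scale. There limma recovered 96% of the changes of 1 and 100% of those of 2, and 8.41% of its calls were unchanged genes. For low genes a plain fold is smaller on that scale, so these rates do not hold for plain folds of low genes. Fewer genes were changed in the simulation than were called in the data.

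Depth was fitted from the steps of low values in single-transcript genes of 450 to 1200 nt (Python 3.11.15). Between 87.2% and 88.1% of these came out within 0.15 of whole fragments, against 30% for evenly spread values. Fragment numbers cover counting error only. GENCODE M21 (GRCm38, the build also called mm10) gave gene positions and overlapping exons, promoters came from RefSeq (GRCm38.p6). Exons of 10 of the 27 genes checked besides the BMP set overlap another gene. Other named genes, among them Kdr, Lmx1a, Hey1, Efnb1, Ephb3 and most cell type markers, were not checked. Nor were their single calls followed through the alternative fits.

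The genes of the set and the lists were chosen with earlier results of these data known, so counts within them are descriptions and no independent test. Up to 4 called genes with the largest change were named per list, and 3 most similar genes for each extreme of the set. In the lists of eye genes and of target genes the called genes that fell were named as well. Alternatives were other pseudocounts, filters, scalings and variance models, a replicate block and leaving out each library.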

Additional observations from a re-analysis of the deposited data

How the results depend on the processing

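Of the refits of single genes of the BMP set, 102 kept direction and side of the threshold, 13 lost the call and 1 changed sign, that of Chrd (0.023 without Dox replicate 1, the end of a range from -0.24 over the fits with 1 library left out). Bmp4, Grem1, Bmp6 and Bmp7 stayed called in every fit in which they were tested. The number of genes in the set called higher was 2 in all other fits, and 3 with at least 1 FPKM in 2 libraries, which adds Gdf6. The number called lower was 3 without a filter, where Bmp5 and Nog dropped out, and 2 with a minimum mean of 5 FPKM, where Bmp2, Bmp5 and Bmp6 were no longer tested. It was 2 to 3 with each library left out in turn, fits in which the lone library of a group is assumed to vary like the other group. Over all genes, 336 were called higher and 409 lower without a filter, 408 and 413 with the minimum of 5 FPKM, and 262 to 320 higher and 331 to 377 lower with 1 library left out. The replicate block gave 532 and 602 calls, and the set's calls did not change (2 higher, 5 lower). No label says that replicate numbers pair libraries (r = -0.043 between deviations of the first replicates). The uncalled Smad5 and Smad1 also changed sign in such fits, ranging from -0.066 to 0.0041 (0.0028 without Dox replicate 1) and from -0.062 to 0.17. The pseudocount moves low genes by construction: the log2 fold change of Grem1 was 2.12 to 6.78 and that of Bmp6 -2.86 to -0.80 over the fits that kept all libraries. The cause of other lost calls was not tested.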
